A study of Mus musculus with 8 samples.

Results

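The genes described here are 32 genes of the unfolded protein response and of protein folding, degradation and entry at the endoplasmic reticulum (ER), chosen by symbol from the table of normalized counts. All 32 held at least 10 in 4 or more libraries, the minimum for testing, out of 13301 genes tested and 24972 listed. They comprise 4 genes of signalling (the sensors Ern1, Atf6 and Eif2ak3, and the transcription factor gene Xbp1), 18 chaperone and folding genes, 8 degradation genes and 2 translocation genes. The tissue was the liver of C57BL/6J mice aged 18 weeks, injected intravenously at 10 weeks with AAV8, an adeno-associated virus vector with tropism for liver, so that RNA was taken 8 weeks after injection. The Null group (AAV8-ALB-Null, 4 libraries) received the control virus and the ATF3 group (AAV8-ALB-ATF3, 4 libraries) the virus named for ATF3. ALB was taken to stand for the albumin promoter, which drives expression in hepatocytes, so the ATF3 group models lasting expression in that cell type. ATF3 is a transcription factor of the ATF and CREB family that stress induces, and the comparison asks how its long-lasting excess alters the liver transcriptome. The design text gives 8 mice per group and the series holds 4 libraries per group. The labels do not say that each library is a separate mouse, so each p-value rests on library-to-library spread, which may be technical.

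Hepatocytes secrete most plasma proteins, and these fold in the ER. When unfolded proteins accumulate there, the sensors IRE1 (Ern1), ATF6 and PERK (Eif2ak3) signal to the nucleus. IRE1 splices the Xbp1 transcript, ATF6 is cut to release a transcription factor, and PERK slows translation and raises ATF4, whose targets include Ddit3, Trib3 and Chac1. ATF6 and spliced XBP1 raise the transcription of chaperones, protein disulfide isomerases and degradation genes. Atf3 is itself a gene that ATF4 induces. Gene totals hold no information on Xbp1 splicing, on ATF6 cleavage or on protein.

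The normalized counts of a library summed to between 23.9 M and 28.4 M, and the read depth behind them is not known. Atf3 ranged from 20.3 to 24.5 in Null and from 5611 to 7053 in ATF3 libraries, where delivered and endogenous transcripts count together. Alb, the albumin gene, ranked first of all genes in all 8 libraries. Null 1 stood apart in its content of pancreatic acinar transcripts: 13 digestive enzyme genes of the exocrine pancreas summed to 345882 normalized counts there, 1.26% of its total. In the other 7 libraries this sum ran from 161 (ATF3 1) to 3437 (Null 3), at most 0.0131% of the total, and 0 of 10 tested were called (log2 changes from -4.94 to -2.59). Pdia2, a disulfide isomerase gene of the exocrine pancreas, held 812 in Null 1 and at most 6.18 in any other library. Mir6236 and Rn45s, a ribosomal RNA precursor gene, made up 5.18% of the normalized counts of Null 1 and at most 0.332% elsewhere. Null 4 held the lowest values of many chaperone genes, as given below. In bulk tissue fewer cells of a type and less RNA per cell cannot be told apart. Of the other marker lists, plasma cell genes summed to 94.2 to 150 in Null and 85.9 to 123 in ATF3, with 0 of 5 tested called. Macrophage genes summed to 12389 to 18738 in Null and 14461 to 20501 in ATF3, with 0 of 12 called. The log2 changes of these macrophage genes were positive in 12 of 12, against 50.8% of all genes tested. Neutrophil genes summed to at most 35.5 in any library, where Ly6g, Camp and Mpo were listed at 0, and 0 of 8 reached the minimum for testing. For T and NK, endothelial, stellate and cholangiocyte genes 1 of 5, 1 of 8, 0 of 9 and 1 of 6 tested were called, each lower. The endothelial sums were fully apart, at 15161 to 17475 in Null and 14134 to 14847 in ATF3, while the sums of the T and NK, stellate and cholangiocyte lists overlapped. Of 11 tested hepatocyte marker genes 3 were higher and 4 lower. Among all genes tested 11.4% were called higher and 9.82% lower (21.2% in either direction), and 26.3% had groups fully apart. The part of these markers and of the Mir6236 and Rn45s share in the results was not tested, beyond the values without Null 1 given below.

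Of the 32 genes, 5 were higher and 2 lower in the ATF3 group at an adjusted p under 0.05 (limma-trend on log2(value + 1), Benjamini-Hochberg adjustment over all genes tested), and 25 did not pass. The higher genes were Creld2, Manf, Hspa5, P4hb and Edem2, and the lower ones were Xbp1 and Atf6. Among all genes tested, 11.4% were called higher and 9.82% lower (21.2% in either direction), against 15.6% and 6.25% of the 32 (21.9% in either direction), so the share called was near that of all genes. Null and ATF3 values were fully apart for 8 of the 32 genes (6 higher, 2 lower), or 25.0%, against 26.3% of all genes tested. The median log2 change of the 32 was 0.16, against 0.00681 for all genes, and 27 of 32 were positive (84.4%) against 50.8% of all genes. Without Null 1 and Null 4 together 18 of 32 were positive (56.2%, against 49.1% of all genes) and the median was 0.084. Without 1 library the positive count ranged from 22 (without Null 4) to 27. Without Null 1 the counts were again 5 and 2, Hspa5 no longer passing and Dnajb9 passing, and without Null 1 and Null 4 together they were 3 and 1. The count of higher genes was 3 without ATF3 3 or ATF3 4, and the count of lower genes was 1 without ATF3 3 and 0 without ATF3 4. The median change of the 32 was 0.068 without ATF3 3. With the deposited TPM (values per transcript length, scaled to 1 sum in each library) the counts were 1 and 0 and those of all genes 440 and 76, and the median change of all genes was 0.68. Mir6236 alone held from 0.308% (Null 4) to 89.4% (Null 1) of a library's deposited TPM. With the TPM rescaled by median of ratios the counts were 5 and 2, and the median change of all genes was 0.00069.

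**Figure D1:**
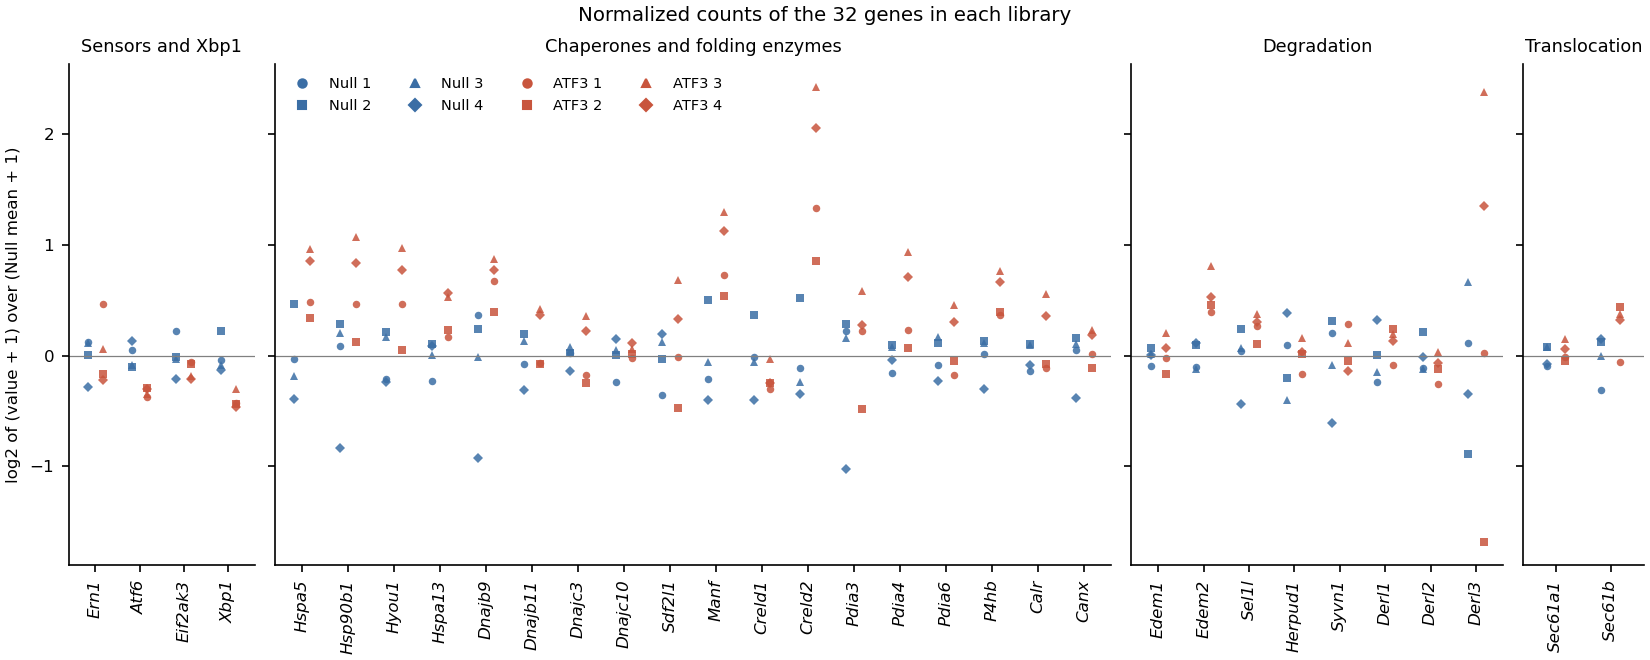
Values of the 32 genes in each library, as log2 of (normalized count + 1) over (Null mean + 1), in 4 panels by role; blue points are Null and red points ATF3 libraries, with a symbol for each library number and 0 as the Null mean. The ATF3 points of Creld2, Manf, P4hb and Edem2 lie above all Null points, as do those of Dnajb9 and Hspa13, those of Xbp1 and Atf6 lie below, and Derl3 spreads most.

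The promoters of these genes are shown because ATF6 and XBP1 act through short elements in them. RefSeq promoter windows (GRCm38.p6, 250 bases before to 50 after the start site) matched 26 of the 32 genes by symbol, and Atf6, Hyou1, Hspa13, Manf, Derl1 and Sec61a1 had none. The ER stress response element (ERSE) was searched on both strands as CCAAT, 9 bases of any kind, then CCACG. It was found in 9 of 26 genes (34.6%), against 0.119% of all 32851 windows and 0.136% of the 13261 windows of tested genes. These were Calr, Canx, Creld2, Derl3, Dnajc3, Hsp90b1, Hspa5, Pdia6 and Syvn1, of which Creld2 and Hspa5 rose in the ATF3 group and 7 did not pass. Among all genes tested 11.4% were called higher (21.2% in either direction), and 9 genes are too few to set against that share. The second type, ERSE-II (ATTGG, 1 base, then CCACG), was found in Dnajb11 and Herpud1 (7.69%), against 0.0365% of all windows and 0.0603% of those of tested genes. The genes were listed for their part in this response, so these shares describe the list. Member windows were also richer in G and C, with a median of 63.0% against 52.7% for all windows. No median was computed for windows of tested genes alone, so whether the 32 differ from those is not known.

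Printed in the direction of transcription, 5′ to 3′, are the windows of the genes that passed and have one, and of 3 further genes with a match: Hsp90b1 with a pair of ERSE matches, Herpud1 with ERSE-II, and Derl3. Capitals mark each CCAAT and each CCACG on either strand (ATTGG and CGTGG on the other strand). They come from chr2:34771840-34772139 on the plus strand (Hspa5), chr15:88819396-88819695 on the plus strand (Creld2), chr11:120573204-120573503 on the minus strand (P4hb), chr2:155729426-155729725 on the minus strand (Edem2), chr11:5520391-5520690 on the plus strand (Xbp1), chr10:86705395-86705694 on the minus strand (Hsp90b1), chr8:94386179-94386478 on the plus strand (Herpud1) and chr10:75893148-75893447 on the plus strand (Derl3).
Hspa5: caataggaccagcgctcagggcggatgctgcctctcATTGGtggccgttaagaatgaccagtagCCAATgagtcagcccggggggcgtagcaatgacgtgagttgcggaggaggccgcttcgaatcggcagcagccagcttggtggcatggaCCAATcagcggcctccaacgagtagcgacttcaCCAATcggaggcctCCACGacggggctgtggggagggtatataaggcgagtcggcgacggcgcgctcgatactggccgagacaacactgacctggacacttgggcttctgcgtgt
Creld2: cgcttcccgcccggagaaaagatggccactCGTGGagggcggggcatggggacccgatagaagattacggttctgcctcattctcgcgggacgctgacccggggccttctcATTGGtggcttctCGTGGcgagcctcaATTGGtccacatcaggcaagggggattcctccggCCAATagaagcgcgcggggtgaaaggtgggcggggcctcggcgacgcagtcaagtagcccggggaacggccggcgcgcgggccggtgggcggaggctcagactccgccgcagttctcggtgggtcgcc
P4hb: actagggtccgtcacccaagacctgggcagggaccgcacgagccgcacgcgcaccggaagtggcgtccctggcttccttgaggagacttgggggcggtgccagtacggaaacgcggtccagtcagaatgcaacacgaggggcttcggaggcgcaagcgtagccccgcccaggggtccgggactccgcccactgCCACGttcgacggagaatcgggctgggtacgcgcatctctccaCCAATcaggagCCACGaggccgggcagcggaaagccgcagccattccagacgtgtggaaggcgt
Edem2: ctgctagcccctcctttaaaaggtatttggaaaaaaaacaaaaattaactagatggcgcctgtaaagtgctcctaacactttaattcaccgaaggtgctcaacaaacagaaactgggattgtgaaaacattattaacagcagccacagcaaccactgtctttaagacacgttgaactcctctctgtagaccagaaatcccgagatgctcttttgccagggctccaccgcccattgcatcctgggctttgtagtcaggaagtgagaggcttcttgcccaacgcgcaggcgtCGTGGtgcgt
Xbp1: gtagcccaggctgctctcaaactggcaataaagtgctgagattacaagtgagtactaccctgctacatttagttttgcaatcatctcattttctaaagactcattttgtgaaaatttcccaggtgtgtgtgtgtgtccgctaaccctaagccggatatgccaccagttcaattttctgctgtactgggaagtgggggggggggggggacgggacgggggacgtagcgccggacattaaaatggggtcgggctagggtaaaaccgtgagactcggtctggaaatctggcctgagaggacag
Hsp90b1: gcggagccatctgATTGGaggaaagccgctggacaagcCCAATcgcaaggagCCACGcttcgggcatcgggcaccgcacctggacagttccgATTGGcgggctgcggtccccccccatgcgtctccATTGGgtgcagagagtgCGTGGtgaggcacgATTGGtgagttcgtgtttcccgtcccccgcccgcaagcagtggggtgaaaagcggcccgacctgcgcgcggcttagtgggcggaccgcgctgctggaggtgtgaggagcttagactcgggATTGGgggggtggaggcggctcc
Herpud1: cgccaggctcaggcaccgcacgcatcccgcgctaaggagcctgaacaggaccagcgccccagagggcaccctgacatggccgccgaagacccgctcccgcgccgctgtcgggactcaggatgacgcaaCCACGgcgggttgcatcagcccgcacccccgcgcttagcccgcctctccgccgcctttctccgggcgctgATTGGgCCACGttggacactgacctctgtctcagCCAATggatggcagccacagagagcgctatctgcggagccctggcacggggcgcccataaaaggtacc
Derl3: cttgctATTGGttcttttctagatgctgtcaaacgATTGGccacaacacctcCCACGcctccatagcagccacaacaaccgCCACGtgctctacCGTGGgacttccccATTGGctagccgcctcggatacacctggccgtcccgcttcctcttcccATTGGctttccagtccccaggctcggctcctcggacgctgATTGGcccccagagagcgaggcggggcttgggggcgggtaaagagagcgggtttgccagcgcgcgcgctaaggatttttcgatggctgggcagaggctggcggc

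The ERSE of Hspa5 spans 65 to 47 bases before the start site, that of Creld2 126 to 108 on the other strand, and that of Derl3 156 to 138 on the other strand. Hsp90b1 holds an ERSE from 212 to 194 and another, on the opposite strand, from 107 to 89. The ERSE-II of Herpud1 lies from 52 to 42. In the P4hb window CCACG stands on each side of a CCAAT but not at the spacing of an ERSE, Edem2 holds a single CCACG, on the other strand, and Xbp1 neither. TGACGTGG, a core site of XBP1 and ATF6, was found in 0 of 26 genes, against 0.676% of all windows and 0.822% of those of tested genes. TGACGTCA, the full site of the ATF and CREB family to which ATF3 belongs, was also found in 0 of 26 genes, against 1.79% and 2.84%. Only the exact letters were searched, so near matches, such as TGACGTGA in the Hspa5 window, were not counted. TGAGTCA, the AP-1 site, was found in Hspa5 and Sec61b (7.69%), against 5.20% and 3.96%, and TGATGNAA, the composite site of C/EBP and ATF factors, in Herpud1 (3.85%), against 3.97% and 2.29%. CCACG alone was in 20 of 26 (76.9%, against 32.8% of all windows and 45.3% of those of tested genes) and CCAAT alone in 21 of 26 (80.8%, against 37.4% and 37.7%), both including the letters within ERSE matches. A match is a description of letters and no sign of binding, and other start sites were not searched.

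Of the 4 signalling genes 2 were called, both lower (50%). Among all genes tested 9.82% were called lower (21.2% in either direction), and 4 genes are too few to set against that share. Xbp1 encodes the transcription factor that IRE1 activates. Xbp1 held 8328, 10014, 8101 and 7849.9 normalized counts across Null 1 to 4, against 6395, 6328, 6956 and 6208 across ATF3 1 to 4. Every ATF3 value lay below every Null value, with means of 8573 ± 980.1 for Null against 6472 ± 332 for ATF3 (± SD, n = 4 per group), or a log2 change of -0.40, SE 0.099, adjusted p = 0.0167. Atf6 encodes the ER membrane protein that is cut under stress. Atf6 held 4082, 3674, 3716 and 4323 normalized counts across Null 1 to 4, against 3055, 3219, 3098 and 3197 across ATF3 1 to 4. The Atf6 groups did not overlap either, and its ATF3 libraries had the narrowest spread of the 32 genes (SD of log2 values 0.0360), with means of 3949 ± 309 for Null against 3142 ± 78.3 for ATF3 (± SD, n = 4 per group), or a log2 change of -0.33, SE 0.084, adjusted p = 0.0200. The call of Xbp1 was lost without ATF3 4 (adjusted p = 0.0579) and that of Atf6 without ATF3 3 or ATF3 4 (adjusted p from 0.0551 to 0.0644) or without Null 1 and Null 4 together (adjusted p = 0.0706). In the deposited TPM both turned to positive, uncalled values, 0.60 and 0.60, which are below the shift of 0.68 in all genes. With the TPM rescaled by median of ratios Xbp1 and Atf6 were again called lower. Xbp1 lies in mm10 on chromosome 11, 5520659 to 5525893, and Atf6 on chromosome 1, 170704674 to 170867771.

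The genes of the other 2 sensors did not pass. Ern1 encodes IRE1, the kinase and endonuclease that splices Xbp1. Ern1 held 1955, 1799.6, 1940.5 and 1467 normalized counts across Null 1 to 4, against 2476, 1599.6, 1863 and 1536 across ATF3 1 to 4. The groups overlapped, ATF3 1 holding the highest and Null 4 the lowest value (log2 change 0.045, SE 0.16, adjusted p = 0.872). The sign of Ern1 turned without Null 4 or without ATF3 1. Eif2ak3 encodes PERK, the kinase that phosphorylates the translation factor eIF2-alpha. Eif2ak3 held 639, 542, 537 and 473 normalized counts across Null 1 to 4, against 527, 520.5, 482 and 472 across ATF3 1 to 4. These values overlapped as well (log2 change -0.12, SE 0.11, adjusted p = 0.464).

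Chaperone and folding genes were higher or did not pass: 4 of 18 rose, 0 fell, and 17 of 18 had a positive log2 change, with a median of 0.31. The share that rose was 22.2%, against 11.4% of all genes tested. Without Null 1 and Null 4 together 2 of the 18 rose and 12 were positive (median 0.20), and without ATF3 3 or ATF3 4 likewise 2 rose. Hspa5, whose printed promoter holds an ERSE, encodes BiP, the HSP70 chaperone of the ER lumen that binds the sensors. Hspa5 held 13217, 18594, 11839 and 10265 normalized counts across Null 1 to 4, against 18839, 17097, 26226 and 24368 across ATF3 1 to 4. Means were 13479 ± 3617 for Null against 21632 ± 4357 for ATF3 (± SD, n = 4 per group), yet the groups overlapped, since ATF3 2 lay below Null 2 (log2 change 0.70, SE 0.20, adjusted p = 0.0301). The Hspa5 call was lost without Null 1, Null 3, ATF3 3 or ATF3 4 (adjusted p from 0.0654 to 0.0947) and without Null 1 and Null 4 together (adjusted p = 0.128). Manf encodes a secreted stress protein that binds BiP. Manf held 844, 1390.3, 938 and 742 normalized counts across Null 1 to 4, against 1622, 1423, 2404 and 2140.0 across ATF3 1 to 4. All 4 ATF3 values exceeded all Null values, the gap between Null 2 and ATF3 2 being the smallest (log2 change 0.97, SE 0.21, adjusted p = 0.00974). The Manf call held without each library in turn (adjusted p from 0.00312 to 0.0356), but not without Null 1 and Null 4 together (log2 change 0.70, adjusted p = 0.0548). Exons of genes on the opposite strand cover 8.85% of the exon bases of Manf, 10.3% of Hsp90b1, 8.16% of Sec61a1 and 8.05% of Eif2ak3 (and exons on the same strand 5.38% of Hsp90b1), and it is not stated whether strand was used in counting.

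Creld2 had the largest change of the 32 genes. It encodes an ER protein with EGF-like domains that is induced by ER stress, and its promoter holds an ERSE as well. Creld2 held 518, 807, 475 and 441 normalized counts across Null 1 to 4, against 1412, 1017, 3022 and 2338 across ATF3 1 to 4. The lowest ATF3 value, in ATF3 2, was above the highest Null value, in Null 2, and ATF3 3 held more than any other library. Means were 560.4 ± 167 for Null against 1947 ± 905 for ATF3 (± SD, n = 4 per group), or 3.28-fold by the fitted log2 change of 1.71 (SE 0.32, adjusted p = 0.00387). The Creld2 call held without each library in turn, with a log2 change from 1.46 to 1.98, without Null 1 and Null 4 together (1.53, adjusted p = 0.0244) and in the deposited TPM. Creld1, a related gene whose product is an ER membrane protein, did not rise and had the only negative value among the 18 (log2 change -0.18, SE 0.15, adjusted p = 0.438). In mm10 Creld2 lies on chromosome 15, 88819646 to 88826683, Hspa5 on chromosome 2, 34771970 to 34777547, and Manf on chromosome 9, 106838312 to 106891979.

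P4hb encodes the archetypal protein disulfide isomerase, PDI, and was the highest gene of the 32 per length when all 8 libraries are averaged. P4hb held 30069, 32609.6, 32191 and 24179 normalized counts across Null 1 to 4, against 38442, 39052, 50484 and 47258 across ATF3 1 to 4. The 4 ATF3 values lay above the 4 Null values (log2 change 0.56, SE 0.14, adjusted p = 0.0171). That call was lost without ATF3 3 or ATF3 4 (adjusted p from 0.0572 to 0.0610) and without Null 1 and Null 4 together (log2 change 0.43, adjusted p = 0.0726). Its relatives Pdia3, which works with the lectin chaperones, Pdia4 and Pdia6 did not pass, at 0.24 (SE 0.31), 0.49 (SE 0.18) and 0.14 (SE 0.15). Pdia4 held 5658 to 6729.6 in Null and 6608 to 12039.9 in ATF3, and it passed without ATF3 2 (adjusted p = 0.0291). The lectin chaperone genes Calr and Canx, for calreticulin and calnexin, were at 0.19 (SE 0.16) and 0.096 (SE 0.14). P4hb lies in mm10 on chromosome 11, 120560298 to 120573253.

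The remaining HSP90, HSP70 and J-protein genes lay above 0 without passing. Hsp90b1 encodes GRP94, the HSP90 chaperone of the ER, and is described here because of its level. Hsp90b1 held 25298, 29006, 27486 and 13301 normalized counts across Null 1 to 4, against 32848, 25893, 50143 and 42565 across ATF3 1 to 4. ATF3 3 and ATF3 4 exceeded all Null libraries and ATF3 2 did not (log2 change 0.69, SE 0.27, adjusted p = 0.101). Hyou1, an HSP110-type exchange factor for BiP, was at 0.58 (SE 0.19, adjusted p = 0.0591), and passed without ATF3 2. Dnajb9, a J-protein that represses IRE1, held 703 to 1726 in Null and 1754 to 2451 in ATF3, with no overlap (log2 change 0.76, SE 0.25, adjusted p = 0.0544). It passed without Null 1 or Null 4 (adjusted p from 0.0199 to 0.0366), and 10.8% of its 31-base stretches occur in transcripts of other genes. Hspa13, an HSP70 of the microsomal fraction, also had groups that did not overlap (log2 change 0.38, SE 0.12, adjusted p = 0.0504), and it passed without Null 4 or ATF3 1. The J-protein genes Dnajb11, Dnajc3 and Dnajc10 were at 0.18, 0.042 and 0.048 (SE 0.15, 0.14 and 0.10). Sdf2l1, which acts in the BiP cycle with J-proteins, was at 0.15 (SE 0.23), and its sign turned without ATF3 3.

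**Figure D2:**
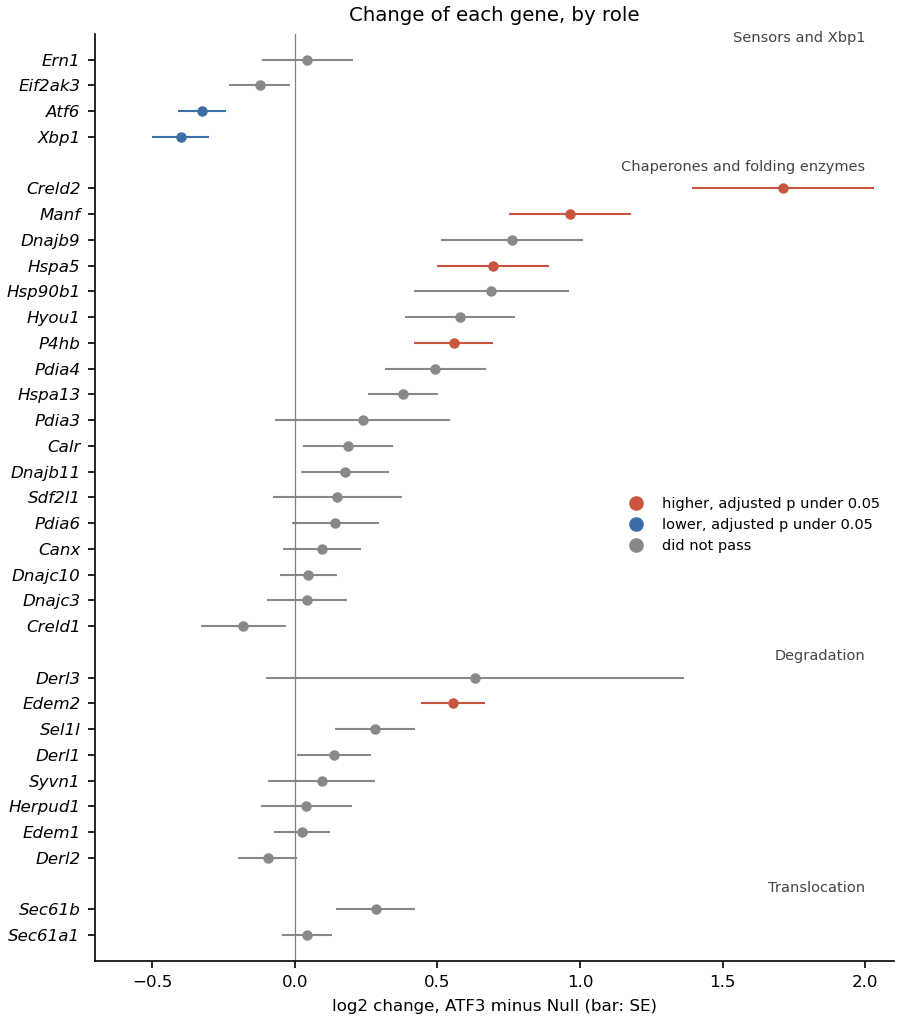
Fitted log2 change of each gene (ATF3 minus Null, horizontal axis) with its SE, grouped by role; red points passed as higher, blue as lower, and grey did not pass. Creld2 (1.71) and Manf (0.97) lead the chaperones, 17 of 18 chaperone points are above 0, and Xbp1 (-0.40) and Atf6 (-0.33) are the 2 lower genes.

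The values of the chaperone genes differed between libraries of the same group. ATF3 3 held the highest ATF3 value of 16 of the 18 genes (88.9%) and ATF3 2 the lowest of 12 (66.7%), where among all genes tested ATF3 3 was highest for 23.2% and ATF3 2 lowest for 26.4%. In Null, Null 2 was highest for 13 and Null 4 lowest for 13 of the 18 (72.2% each), against 19.3% and 33.8% of all genes. Measured from each gene's mean over the 8 libraries, the median of the 18 was -0.24, 0.0034, -0.033 and -0.40 in Null 1 to 4, so that Null 1, with the acinar transcripts, lay below Null 2 and Null 3. In ATF3 1 to 4 it was -0.011, -0.14, 0.52 and 0.34, so ATF3 1 and ATF3 2 lay within the Null range and ATF3 3 and ATF3 4 above it. The median SD of log2 values within the ATF3 group was 0.29 for the 18 genes and 0.16 for all genes. Within the Null group that median was 0.244 for the 18 genes and 0.237 for all genes. The genes of a library share its depth and scaling, and these orders are descriptions. Without ATF3 3 the median change of the 18 was 0.21 with 2 called (Manf and Creld2). Without Null 4 it was 0.32 with 6 called and 14 positive.

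**Figure D3:**
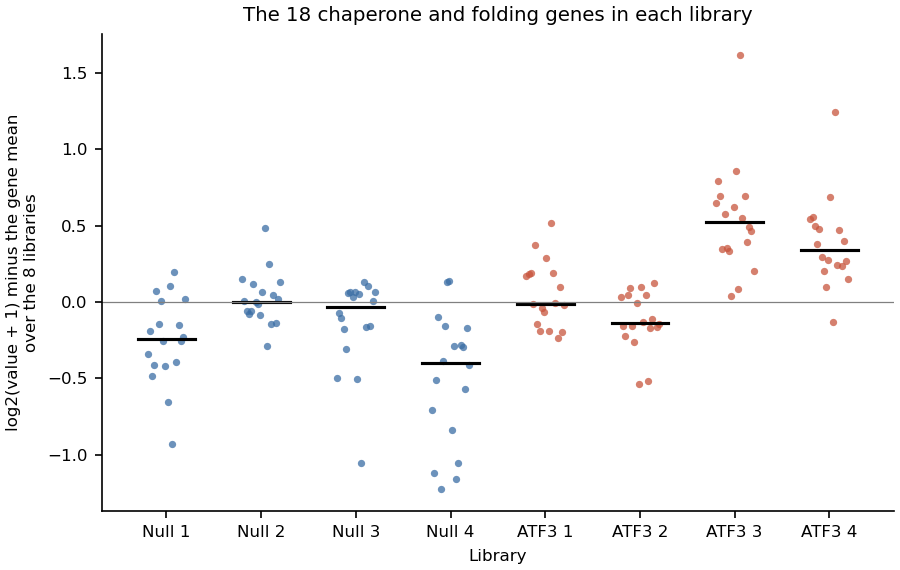
The 18 chaperone and folding genes in each of the 8 libraries, as log2(normalized count + 1) minus the gene's mean over the libraries; each point is a gene and the black bar is the median. ATF3 3 (median 0.52) and ATF3 4 (0.34) stand above the other libraries and Null 4 (-0.40) below, while ATF3 1 and ATF3 2 lie among the Null libraries.

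Of the 8 genes of ER-associated degradation, which returns misfolded proteins to the cytosol, 1 rose and 0 fell (median log2 change 0.12). The share that rose was 12.5%, near the 11.4% of all genes tested. Edem2 encodes a mannosidase-like protein that starts mannose trimming on misfolded glycoproteins. Edem2 held 1242, 1427, 1226 and 1446 normalized counts across Null 1 to 4, against 1757, 1841, 2349.8 and 1926 across ATF3 1 to 4. All 4 ATF3 values were above the Null values (log2 change 0.55, SE 0.11, adjusted p = 0.00601), and the call held without each library in turn (adjusted p from 0.00332 to 0.0209) and without Null 1 and Null 4 together (adjusted p = 0.0143). Its relative Edem1, an XBP1 target, was at 0.025 (SE 0.097). Herpud1, a small ER membrane protein of the degradation complex and the most abundant of the 8 per length, showed no order of the groups. Herpud1 held 9808, 7982, 6934 and 11968 normalized counts across Null 1 to 4, against 8166, 9252, 10245 and 9391 across ATF3 1 to 4. Null 4 held the highest and Null 3 the lowest value (log2 change 0.040, SE 0.16, adjusted p = 0.887). The ubiquitin ligase gene Syvn1 and its partner Sel1l were at 0.094 (SE 0.19) and 0.28 (SE 0.14, adjusted p = 0.187). Edem2 lies in mm10 on chromosome 2, 155701677 to 155729475.

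The derlin genes, whose products form part of the channel for retrotranslocation, did not pass. Derl1 and Derl2 were at 0.14 (SE 0.13) and -0.095 (SE 0.10). Derl3 is the lowest of the 32 genes per length in Null and is described because it varied most. Derl3 held 92.4, 45.5, 136 and 66.9 normalized counts across Null 1 to 4, against 86.8, 25.8, 450.0 and 219 across ATF3 1 to 4. ATF3 3 held more than any other library and ATF3 2 less, so the ATF3 group spans the Null group on both sides (log2 change 0.63, SE 0.73, adjusted p = 0.590). Without ATF3 2 its log2 change was 1.37 and without ATF3 3 0.00925, neither called.

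Neither of the genes of the Sec61 channel, through which new proteins enter the ER, passed. Sec61a1 held 4328, 4871, 4883 and 4372 normalized counts across Null 1 to 4, against 4589, 4473, 5134 and 4821 across ATF3 1 to 4. The groups overlapped for this gene of the channel subunit (log2 change 0.044, SE 0.087, adjusted p = 0.768). Sec61b held 519, 698, 639.6 and 711 normalized counts across Null 1 to 4, against 619, 872, 837 and 803 across ATF3 1 to 4. For this small subunit ATF3 1 lay among the Null values and the other 3 ATF3 libraries above them (log2 change 0.28, SE 0.14, adjusted p = 0.184). Of the 31-base stretches of Sec61b, 23.5% also occur in other genes, so its values are less certain.

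Levels between genes were compared per length, as TPM rescaled by median of ratios so that libraries share 1 scale. In Null the order began with Calr (410.3 ± 35.2), P4hb (385 ± 50.6), Hsp90b1 (362 ± 109) and Hspa5 (212 ± 56.9), as mean ± SD over 4 libraries. The first 3 lay within the SD of Hsp90b1 of each other. In ATF3 Hsp90b1 (577 ± 162) and P4hb (568 ± 77.6) stood before Calr (475 ± 108), again within the SD of Hsp90b1. Xbp1 was at 149 ± 17.2 in Null and 113 ± 5.80 in ATF3, and moved from rank 7 to rank 10 of the 32. Creld2 moved from rank 25 (16.9 ± 5.05) to rank 16 (58.7 ± 27.3). The sensor genes were lower: Atf6 was at 20.2 ± 1.57 in Null, Ern1 at 16.1 ± 2.05 and Eif2ak3 at 4.66 ± 0.582. In Null, Ern1 lay between Atf6 and Eif2ak3, and its mean differed from that of Eif2ak3 by more than both SDs. In ATF3, Ern1 (16.8 ± 3.86) and Atf6 (16.1 ± 0.399) lay within the SD of Ern1, and Eif2ak3 was at 4.26 ± 0.233. Derl3 closed the order in Null at 2.86 ± 1.31.

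**Figure D4:**
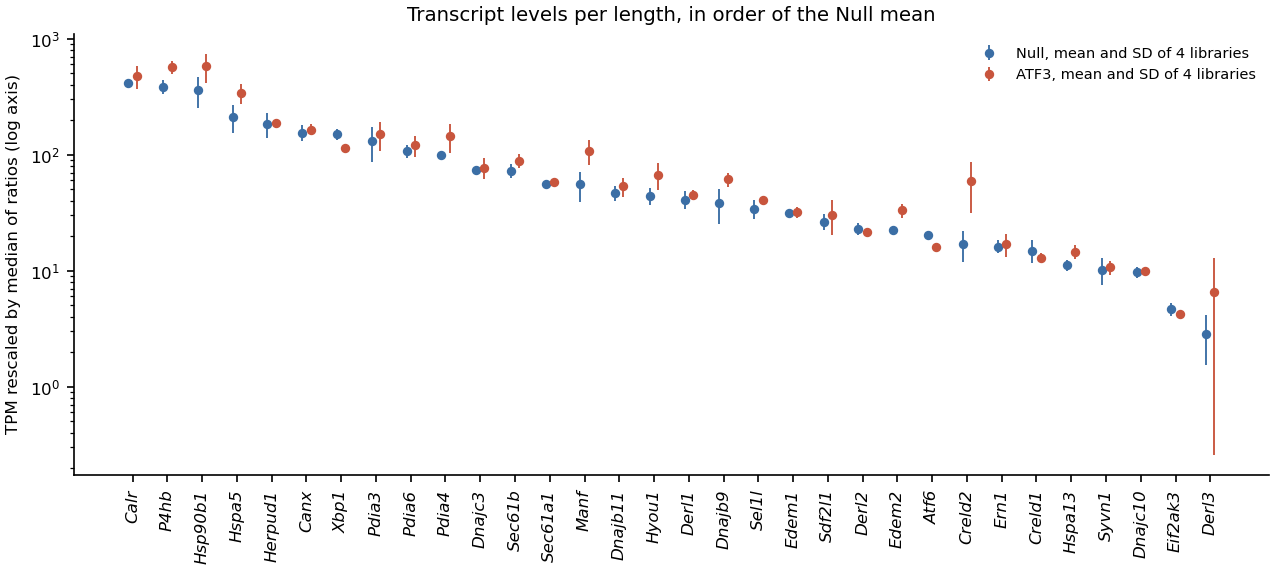
TPM rescaled by median of ratios (log axis) of the 32 genes, in order of the Null mean; points are means of 4 libraries, bars their SD, blue for Null and red for ATF3. The genes run from Calr, at 410.3 in Null, to Derl3, at 2.86, and Creld2 shows the widest step between the groups relative to its level.

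Genes of the pathway outside the 32 were taken from 4 further lists. Of 23 tested regulators and stress response genes, 5 were higher (21.7%) and 3 lower (13.0%), with a median log2 change of 0.12. Among all genes tested the shares were 11.4% and 9.82%. The higher genes included Atf3 itself at 8.05 (SE 0.11, adjusted p = 5.60e-11). Chac1, a glutathione-degrading enzyme and ATF4 target, had the lowest log2 change of the 4 lists. Chac1 held 90.0, 150.4, 101 and 73.5 normalized counts across Null 1 to 4, against 3.45, 9.12, 3.15 and 2.25 across ATF3 1 to 4. Every ATF3 library held at most 9.12 and every Null library at least 73.5 (log2 change -4.35, SE 0.37, adjusted p = 2.88e-05), and the size depends on the 1 added to such low values. Trib3, a pseudokinase induced through ATF4 and CHOP, fell likewise, from 258 ± 94.4 to 52.6 ± 11.9 (± SD, n = 4 per group; log2 change -2.20, SE 0.31, adjusted p = 0.000722). Atf4 and Ddit3, the genes of ATF4 and CHOP, did not pass. Atf4 held 1978, 1958, 2131 and 2933 normalized counts across Null 1 to 4, against 1954, 2369, 1722 and 1897 across ATF3 1 to 4. Ddit3 ranged from 53.6 to 75.8 in Null and from 65.7 to 86.8 in ATF3. Both overlapped between groups, at log2 changes of -0.17 (SE 0.15) and 0.22 (SE 0.16). Creb3l3, a liver transcription factor held in the ER membrane like ATF6, rose without overlap, from 6359 to 7526 in Null libraries and 10305 to 11588 in ATF3 libraries (log2 change 0.64, SE 0.089, adjusted p = 0.000686).

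Of 42 tested further folding genes 8 were higher (19.0%) and 2 lower (4.76%), with a median log2 change of 0.13. Fkbp11, a prolyl isomerase of the secretory pathway and XBP1 target, fell from 302 ± 64.3 to 79.0 ± 12.4 (± SD, n = 4 per group; log2 change -1.91, SE 0.18, adjusted p = 5.30e-05). Mcfd2, part of a cargo receptor for ER export, also fell, its values lying at 3388 to 4349 in Null libraries and at 2194 to 2968 in ATF3 libraries (log2 change -0.54, SE 0.12, adjusted p = 0.00884). Txndc11 and Tmx4, thioredoxin-like proteins of the ER, rose by 0.98 (SE 0.11) and 0.42 (SE 0.10), and the call of Tmx4 was lost without ATF3 3 (adjusted p = 0.0524). Of 33 tested further degradation genes 1 was higher (3.03%) and 2 lower (6.06%), with a median of -0.047. Stt3b, a catalytic subunit of the oligosaccharyltransferase, rose by 0.32 (SE 0.090), and the lectin gene Erlec1 and the ubiquitin ligase gene Rnf185 changed by -0.50 (SE 0.15) and -0.30 (SE 0.085). Leaving out 1 library ended the call of Stt3b in 4 cases (Null 2, Null 3, ATF3 3 or ATF3 4). For Rnf185 (all but Null 2 and Null 4) and Erlec1 (all but Null 4 and ATF3 1) it did so in 6 of 8 (adjusted p from 0.0532 to 0.128 over the 3 genes). Of 33 tested genes of ER entry 4 were higher (12.1%, near the share of all genes) and 1 lower (3.03%), with a median of 0.057. Srp54a and Srp54b, copies of a signal recognition particle subunit gene, rose by 0.54 and 1.12, but other genes hold 72.5% and 89.9% of the 31-base stretches of these transcripts, so reads may be split between them. Ostc, another subunit gene of the oligosaccharyltransferase, rose by 0.55 (SE 0.13), and Tram2 fell by 1.15 (SE 0.26). The signs of Mcfd2, Rnf185 and Erlec1 turned in the deposited TPM.

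**Figure D5:**
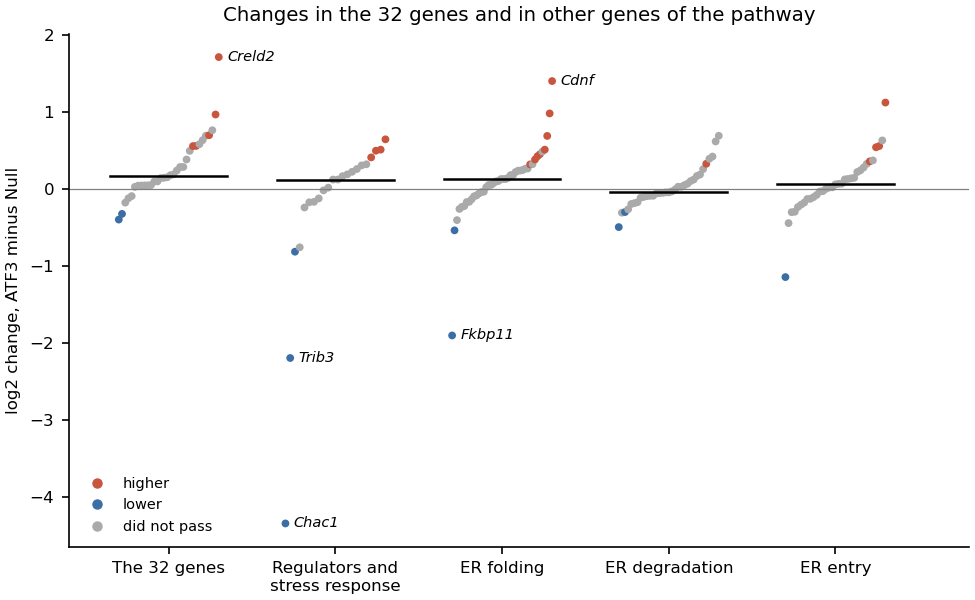
Fitted log2 change (ATF3 minus Null) of each tested gene, for the 32 genes and 4 further lists; red points passed as higher, blue as lower, grey did not pass, and the black bar is the median of the genes drawn. Atf3 (8.05) is left out to keep the scale. Chac1 (-4.35), Trib3 (-2.20) and Fkbp11 (-1.91) lie far below the other genes, and Creld2 (1.71) and Cdnf (1.40) above. Cdnf is a low gene, at 4.74 to 15.8 normalized counts in Null and 20.3 to 42.2 in ATF3 libraries (SE of its log2 change 0.41).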

How the data were processed

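Total RNA of mouse liver was made into strand-specific libraries, per the labels' protocols. Bowtie2 and mm10 are named in the submitters' processing notes, and Illumina software in BaseSpace in the design text. How reads were assigned to genes, and with which annotation, is not given in the sources used here. The authors deposited 2 tables: a signal, read as normalized counts (by the file's name scaled by DESeq, with values that are not whole), and TPM (reads per transcript length, as a share of the library), which the authors scaled to the same sum in every library, as the deposited values show. Whole reads could not be recovered, so no count model was used.

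The column titles matched each column to a sample, and the genotype in that sample's label gave its group. Library numbers follow accession order and pair nothing. Genes with at least 10 normalized counts in at least 4 libraries (13301) were tested with limma 3.58.1 in R 4.3.3 on log2(value + 1), by group, with moderated variances that follow a trend with level, two-sided, with Benjamini-Hochberg adjustment over all genes tested and a threshold of 0.05. The added 1 understates changes of low genes. The procedure was run on simulated data with noise drawn independently for each gene and library. Shifts shared by many genes of a library were not simulated, so that run does not test the calls under such shifts. The genes, lists and tests were chosen with earlier results of these data known. Values per library are printed for genes that passed, the sensors and Xbp1, and the most abundant gene and the smallest p of each role. Outside that rule they are also printed for Sec61a1 and, from the further lists, for Atf4 and Chac1. Of each further list up to 4 called genes with the smallest p are named, always with Atf3, Atf4 and Ddit3. Hsp90b1, Derl3, Cdnf, Pdia2 and the genes near the threshold were described after their values were seen. In the deposited TPM, Mir6236 alone held between 0.308% (Null 4) and 89.4% (Null 1) of a library, so levels were compared after rescaling by median of ratios. Positions and shared stretches of 31 bases come from GENCODE vM21 (mm10), which may differ from the authors' annotation. Protein sequences were not analysed here. Python 3.11.15, pandas 2.3.3, numpy 2.4.6 and matplotlib 3.10.9 were used. Alternatives changed the scaling, filter, pseudocount, variance model, library weights and the libraries used.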

Additional observations from a re-analysis of the deposited data

Results flagged for a closer look

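Pdia3, a disulfide isomerase gene, held 4021 normalized counts in Null 4, far below the other Null libraries (9144 to 9933). The gap to the nearest library was 0.867 of the range of the group, above the 95% critical value of Dixon's test for 4 libraries. It was the only such case among 64 groups of 4 libraries (32 genes in 2 groups), where chance flags about 1 in 20. Without Null 4 the log2 change of Pdia3 was -0.074, against 0.24 with it.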

How the results depend on the processing

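Over 20 other settings and 32 genes, 574 of 640 values kept both direction and side of the threshold, 19 lost the call (2 of them, Atf6 and Xbp1 with the deposited TPM, also turning sign), 18 gained one, and 31 in all turned sign. The counts of genes called in the 32 were 5 higher and 2 lower. They became 1 and 0 with the deposited TPM, 8 and 2 with upper-quartile rescaling and 10 and 2 with limma array weights. Without Null 1 and Null 4, a setting chosen after seeing the data, they were 3 and 1, and leaving out 1 library gave 3 to 7 higher and 0 to 2 lower. Over all genes, the 1513 higher and 1306 lower became 440 and 76 with the deposited TPM and 2271 and 2130 with array weights, and ranged from 1040 to 1965 and from 851 to 1812 without 1 library. The cause was not tested. The other 8 settings that used all libraries kept the counts of the 32 at 5 or 6 higher and 2 lower. With the deposited TPM the median change of the 32 moved from 0.16 to 1.13 and that of all genes from 0.0068 to 0.68, and the values that turned sign were Atf6 0.60, Eif2ak3 0.63, Xbp1 0.60, Creld1 0.71, Derl2 0.83, Atf4 0.80, Mcfd2 0.44, Rnf185 0.54 and Erlec1 0.37, none called. Array weights turned Ern1 to -0.090 and Syvn1 to -0.10. Without Null 1 and Null 4 the turned values were Ern1 -0.026, Dnajb11 -0.00105, Dnajc3 -0.012, Pdia3 -0.073, Pdia6 -0.0066, Canx -0.051, Edem1 -0.016, Syvn1 -0.064 and Sec61a1 -0.039, none called. Genes whose sign turned without 1 library ranged as follows, none called in these settings: Ern1 -0.099 to 0.13, Dnajc3 -0.063 to 0.14, Dnajc10 -0.029 to 0.10, Sdf2l1 -0.034 to 0.35, Pdia3 -0.074 to 0.45, Canx -0.025 to 0.16, Edem1 -0.035 to 0.088, Herpud1 -0.084 to 0.18, Syvn1 -0.095 to 0.21. No paired analysis was possible because the labels give the groups no shared replicate numbers. The read depth is unknown, so no interval for counting error is given, and 4 libraries per group limit what could be detected.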
